A study of Mus musculus with 70 samples.

Results

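The genes described here are 10 secreted or membrane-bound chemokines, the CXC ligands Cxcl1, Cxcl2, Cxcl5, Ppbp, Pf4, Cxcl10, Cxcl12, Cxcl14 and Cxcl16 and the CX3C ligand Cx3cl1 (fractalkine). Their probes were taken by gene name or transcript accession, which gave 11 of the 55681 non-control probes of the array (2 for Cxcl12, 1 for each of the others) and 10 of its 21154 named genes. RNA came from RENCA cells, a mouse renal adenocarcinoma line carrying GFP from a lentiviral vector. The cells were taken before implantation (P0) and after each of 6 rounds, P1 to P6, in which they were put into female BALB/c mice of 6 weeks and recovered. KPT cells were implanted in the kidney and recovered from the kidney tumour, T-LM cells were injected into the tail vein and recovered from lung metastases, and K-LM cells were implanted in the kidney and recovered from lung metastases. All groups, P0 included, share the GFP vector and derive from the same line. Cells recovered from mice were grown in culture until GFP-negative cells were no longer seen. From P1 to P6 there were 5, 2, 2, 3, 5 and 5 KPT samples, 5, 2, 3, 4, 6 and 4 T-LM samples, and 1, 1, 5, 3, 4 and 3 K-LM samples, beside 2 of P0. Nothing in the labels ties samples of a group to separate cultures of one tumour or to separate mice, so the p-values measure the spread between these samples.

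Chemokines are small proteins that steer migrating cells through G-protein-coupled receptors. The CXC ligands that carry a glutamate-leucine-arginine motif (Cxcl1, Cxcl2, Cxcl5 and processed Ppbp) attract neutrophils through Cxcr2 and are typical targets of NF-kappaB, whereas Cxcl10 is induced by interferon and attracts T cells through Cxcr3. Cxcl12 acts through Cxcr4 and is a product of stromal cells, Cxcl14 is made by epithelia and fibroblasts, and Pf4 and Ppbp are stored in platelet granules and also made by some myeloid cells. Cxcl16 and Cx3cl1 are made as membrane proteins and shed by the proteases Adam10 and Adam17.

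Levels are given on a log2 scale as the scanner's processed signal relative to the 75th percentile of the same array, so that 0 lies at that percentile and 1 unit is a 2-fold difference. The percentile was taken over the 11282 probes that the scanner software marked as well above background on all 70 arrays. Levels of different probes are not comparable with each other. Between 25.1% and 55.1% of probes were well above background on an array (median 32.9%). On the 5 RNA samples hybridised a second time, those of P0 and replicates 1, 2 and 4 of KPT P6, repeat and first array differed by -0.28 to 0.49 for Cxcl1 and Cxcl2 and by as much as -1.55 for Cxcl14, whose level in those samples lay near background. The repeats share a slide, scanned with a later software version, with all K-LM P6 samples, and every comparison with K-LM P6 carried a term for that slide. The other 8 slides each held at most 1 sample of a group. The replicate named LOT1 of T-LM P1 was placed by a label other than its title. Of the 7 epithelial and renal markers, Krt8, Krt18 and Pax8 were well above background in P0, while Epcam, Cdh1, Pax2 and Cdh16 were not.

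Cxcl1, Cxcl2 and Cxcl5 shared a low at P5 in the kidney route. They were well above background from P0 to P4, lowest of all samples in the 5 of P5, and well above background again at P6. Their courses before P5 differed. From P0 to KPT P3 the group mean rose from -1.25 to 0.10 for Cxcl1 and from -5.14 to -3.58 for Cxcl2. For Cxcl5 it fell from -1.71 to -2.68. In both lung routes these 3 genes were well above background in all P5 samples, although Cxcl2 fell from P4 to P5 in T-LM. Cxcl1 and Cxcl2 are neighbours on chromosome 5, and Cxcl5, Ppbp and Pf4 follow one another on the same chromosome. The RefSeq table (GRCm38.p6) held promoter windows of 8 members, and the sequences below are shown because the letters GGAATTTCC, the core of an NF-kappaB site, were found on either strand within 250 bases before the start of Cxcl1, Cxcl2 and Cxcl10. Those exact letters were present in 94 of 32851 such windows (0.286%), and in 3 of the 8 members' windows. They were absent from those of Ppbp, Pf4, Cxcl12, Cxcl14 and Cx3cl1. Cxcl5 and Cxcl16 had no window and were not searched. Other forms of an NF-kappaB site were not searched for, so a window may hold sites beyond those marked here. Each stretch runs 5′ to 3′ on the gene's own strand and ends at the base before the transcription start, with the match in capitals. The core began 70 bases before the start of Cxcl1, 96 before that of Cxcl2 and 158 before that of Cxcl10, where it lies on the opposite strand.
Cxcl1, chr5:90891165-90891244, plus strand: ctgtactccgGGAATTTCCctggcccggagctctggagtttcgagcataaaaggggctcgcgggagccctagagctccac
Cxcl2, chr5:90903793-90903898, plus strand: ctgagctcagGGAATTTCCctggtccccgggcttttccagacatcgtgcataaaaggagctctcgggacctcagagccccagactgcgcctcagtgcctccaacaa
Cxcl10, chr5:92348890-92349057, minus strand: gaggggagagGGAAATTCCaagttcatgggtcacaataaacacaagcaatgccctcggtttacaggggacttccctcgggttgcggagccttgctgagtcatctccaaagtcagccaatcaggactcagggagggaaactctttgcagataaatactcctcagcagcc

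Cxcl1, a neutrophil attractant, was at -1.22 and -1.29 in P0 and between -0.93 and 1.33 in the 3 KPT P4 samples. In KPT P5 it was at -4.46, -4.27, -5.8, -6.09 and -4.74, and in KPT P6 at -2.02, -1.24, -2.83, -2.61 and -0.75. All 5 KPT P5 samples were lower than every other sample of the series, although the probe was well above background in all of them. Cxcl2, its neighbour, was at -5.16 and -5.11 in P0 and at -1.26, -2.06 and -4.51 in KPT P4. In KPT P5 Cxcl2 was at -5.96, -5.47, -7.96, -7.73 and -7.14, well above background in 1 sample only, against -4.96, -4.62, -5.36, -5.29 and -4 in KPT P6. Again the 5 P5 samples were the lowest of the series. Cxcl5, which encodes another Cxcr2 ligand, was at -1.93 and -1.5 in P0 and at -1.49, -4.29 and -2.16 in KPT P4. Cxcl5 was not well above background in any KPT P5 sample (-6.89, -6.74, -6.77, -7.1 and -6.16) and was measured again in all 5 KPT P6 samples (-4.33, -3.86, -4.8, -4.58 and -3.14).

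**Figure D1:**
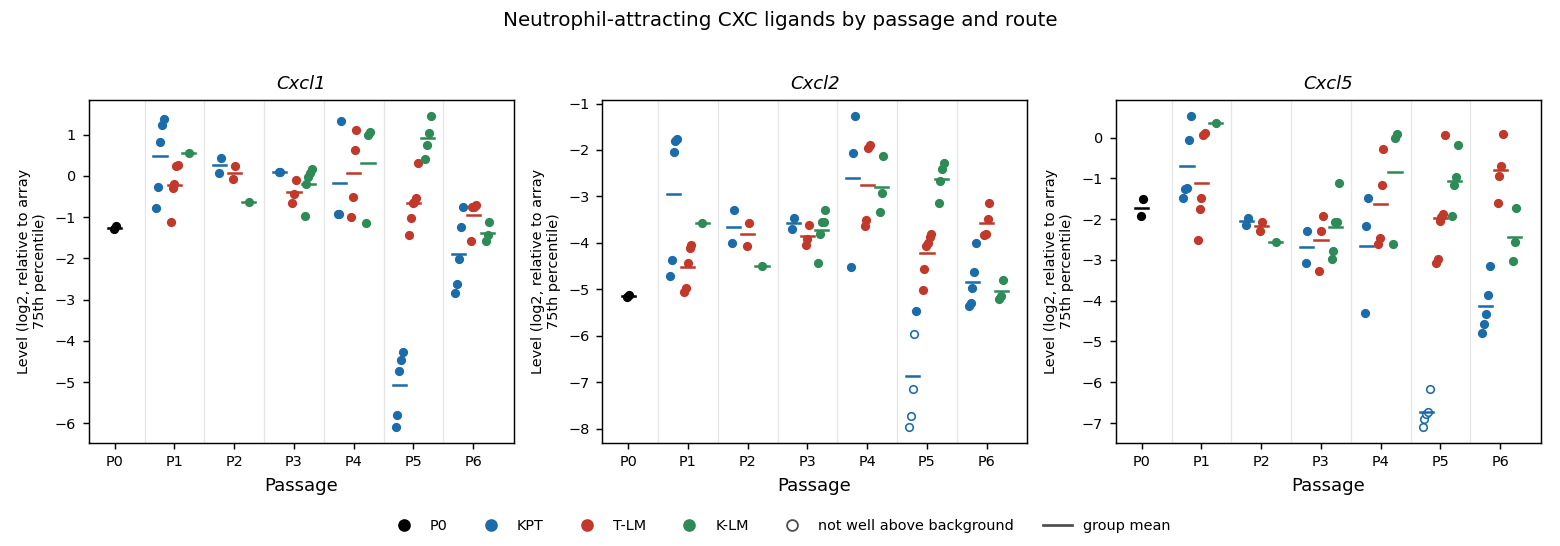
Level of Cxcl1, Cxcl2 and Cxcl5 (log2, relative to the array's 75th percentile) in each RNA sample by passage, with P0 in black, KPT in blue, T-LM in red and K-LM in green; open circles are samples in which the probe was not well above background and bars are group means. The 5 KPT P5 samples lie below all other samples for each of the 3 genes, with Cxcl5 between -7.1 and -6.16.

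The step from P4 to P5 in KPT was compared after these levels had been seen, and limma called 3 of the 10 members (8 tested), against 1.21% of all probes at an adjusted p of 0.01 or less. Cxcl1 fell by 4.90 (SE 0.553, adjusted p = 0.000342) and Cxcl2 fell by 4.24 (SE 0.634, adjusted p = 0.00301). Cxcl5 was at least 12.6-fold lower at P5 (adjusted p = 0.000834), a bound because it was not well above background there. Fitted by limma on the P4 and P5 samples alone, without the other passages to estimate the spread, 0 of these calls remained, at adjusted p-values of 0.0363, 0.0662 and 0.0363. In the fit over all passages 5 members had an unadjusted p under 0.05. From P5 to P6 in KPT 2 members were called, against 0.977% of probes. Cxcl1 rose by 3.20 (SE 0.479, adjusted p = 0.00231) and Cxcl5 was at least 4.48-fold higher (adjusted p = 0.0045), while Cxcl2 differed by 1.96 (SE 0.549, adjusted p = 0.0538). The Cxcl5 call was lost without KPT P5 replicate 1, 3 or 4 and without KPT P6 replicate 2, 3, 4 or 5, each time with 1 member left, and the Cxcl2 call from P4 to P5 was lost without KPT P4 replicate 1 or 3.

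In the lung routes these 3 genes were well above background in every P5 sample. In T-LM P5 the lowest, median and highest of the 6 samples were -1.44, -0.65 and 0.3 for Cxcl1. They were -5.02, -4.04 and -3.8 for Cxcl2 and -3.08, -1.99 and 0.07 for Cxcl5. In K-LM P5 Cxcl1 was at 0.74, 0.41, 1.46 and 1.03, Cxcl2 at -2.67, -3.13, -2.28 and -2.4, and Cxcl5 at -0.96, -1.93, -0.18 and -1.16. No sample of either lung route overlapped the KPT P5 samples for any of the 3 genes. Between T-LM and KPT at P5, 3 of the 10 members were called (9 tested), against 5.4% of probes: Cxcl1 was higher in T-LM by 4.41 (SE 0.359, adjusted p = 1.09e-05), Cxcl2 by 2.63 (SE 0.404, adjusted p = 0.00113) and Cxcl5 by at least 20.2-fold (adjusted p = 5.83e-05). Between K-LM and KPT at P5, 4 members were called, against 7.4% of probes. Cxcl1 was higher in K-LM by 5.98 (SE 0.398, adjusted p = 1.14e-06), Cxcl2 by 4.23 (SE 0.447, adjusted p = 3.69e-05) and Cxcl5 by at least 38-fold (adjusted p = 9.55e-06), and the fourth was Cxcl10. The comparisons share the KPT P5 samples. Fibroblast and leukocyte marker signal was uneven among these samples: KPT P5 replicates 1 and 2 and T-LM P5 replicate 1 had a summed fibroblast signal of 4.87, 2.85 and 5.59, against -0.98 to 1.75 in the other KPT and T-LM P5 samples. Without those 3 samples, a choice made after seeing the data, Cxcl1 differed from KPT by 4.69 in T-LM (adjusted p = 1.86e-06) and by 6.45 in K-LM (adjusted p = 7.92e-08). Cxcl2 and Cxcl5 were not well above background in any of the 3 KPT P5 samples then left.

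Genes of the NF-kappaB pathway differed along with these ligands at P5. Of the 12 listed (10 tested), 4 were higher in both lung routes than in KPT and none was lower. These 4, and the other pathway genes named at P4, P5 or P1, were chosen after their values were seen. Nfkbia, which encodes the inhibitor IkappaB-alpha and is itself an NF-kappaB target, was higher by 1.99 in T-LM (adjusted p = 1.1e-05) and 2.72 in K-LM (adjusted p = 1.14e-06). Nfkbiz, a co-activator of NF-kappaB target genes, was not well above background in any KPT P5 sample and was at least 4.55-fold higher in T-LM and at least 5.31-fold higher in K-LM. It passed the filter on dim probes only through the lung routes. Tnfaip3, a feedback inhibitor, was higher by 1.20 and 1.72, and Tnf, an inducer of the pathway, by 1.24 and 2.03. From P4 to P5 in KPT, 3 of the 12 genes fell (Relb, Nfkbia and Nfkbiz) and none rose. Among the 6 other ligands of the families (5 on the array), only Cxcl3, the closest relative of Cxcl1 and Cxcl2, was tested. Cxcl3 fell by 3.10 from P4 to P5 in KPT (adjusted p = 0.000757) and at P5 its difference from KPT was 2.73 in T-LM and 4.24 in K-LM. Cxcl1, Cxcl2 and Cxcl3 have similar coding sequences, and probe sequences were not used here, so signal shared between their probes cannot be told apart.

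Over the whole kidney route 0 of the 10 members were called between P0 and P6 by limma (8 tested, 3 at an unadjusted p under 0.05), against 3.87% of all probes. The same held between P3 and P6 (0 called, 3 at an unadjusted p under 0.05, 0.71% of probes). Cxcl1 differed between P0 and KPT P6 by -0.57 (95% interval -1.91 to 0.78) and Cxcl2 by 0.23 (-1.31 to 1.77). Cxcl5 differed by -2.16 (SE 0.745, adjusted p = 0.111) with no overlap of the groups, in a fit in which one of the 2 P0 arrays was dropped because the spot was marked as an outlier. On the slide that held both P0 samples and 3 of the KPT P6 samples, 2 members were called, Cxcl5 at -2.53 (adjusted p = 0.00232) and Cx3cl1 at 0.91 (adjusted p = 0.00718). Between KPT P1 and P6, 2 of the 10 members were called (9 tested), both lower, and the share of all probes called was also larger, at 11.6%. Cxcl1 fell by 2.36 (SE 0.509, adjusted p = 0.00248) although the groups overlapped, from -0.78, -0.26, 0.83, 1.38 and 1.24 at P1. Cxcl5 fell by 3.47 (SE 0.464, adjusted p = 4.12e-05), from -1.26, -1.24, -1.49, 0.54 and -0.06, with no overlap. KPT P1 replicates 3 to 5, which had the higher Cxcl1, had 9 or 10 leukocyte markers above background, against 7 and 6 in replicates 1 and 2. Cxcl5 was lowest in replicate 3, and the part of these markers' cells was not tested. Of the NF-kappaB list, 5 of 12 genes fell between KPT P1 and P6 and none rose.

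At P6 Cxcl5 separated the routes more than Cxcl1 did. Cxcl5 was at -1.6, -0.94, 0.09 and -0.69 in T-LM P6, at -3.02, -2.57 and -1.72 in K-LM P6 and between -4.8 and -3.14 in KPT P6. T-LM lay above K-LM and K-LM above KPT, with no overlap between any 2 of the groups. The lowest K-LM sample (-3.02) was close to the highest KPT sample (-3.14, replicate 5), which was on another slide. Repeat and first arrays of the same RNA differed by -0.14 to 0.30 for Cxcl5. The gap between these 2 groups therefore cannot be told apart from the slide. It was higher in T-LM than in KPT by 3.41 (SE 0.351, adjusted p = 2.42e-06) and higher in K-LM than in KPT by 1.67 (SE 0.419, adjusted p = 0.00706), while K-LM against T-LM was at -1.74 (SE 0.488, adjusted p = 0.0171). Cxcl2 was at -3.83, -3.48, -3.14 and -3.81 in T-LM P6 and at -5.13, -5.2 and -4.79 in K-LM P6. It was higher in T-LM than in KPT by 1.31 (SE 0.233, adjusted p = 0.000486) and lower in K-LM than in T-LM, at -1.5 (SE 0.319, adjusted p = 0.00259), while K-LM and KPT differed by -0.19 (95% interval -0.76 to 0.38). The difference between K-LM and T-LM was not called without K-LM P6 replicate 1 or 2. Cxcl1 was called in none of these comparisons, at 0.95 (0.25 to 1.65) between T-LM and KPT. The lower Cxcl2 of K-LM P6 was also seen against K-LM P3, where it had been at -4.43, -3.8, -3.29, -3.54 and -3.54. It fell by 1.4 (SE 0.31, adjusted p = 0.007) and was the only member of 10 called (9 tested), against 3.51% of probes. That call was lost without K-LM P3 replicate 4 or 5, without any one of the 3 K-LM P6 samples, and with slide as a random block (adjusted p of 0.109 at most over all alternatives).

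Pf4 and Ppbp, the platelet chemokines, were not well above background in P0 and were in every sample of T-LM P4 and P6. Pf4 was at -9.16 and -8.57 in P0 and at -8.36, -9 and -8.39 in T-LM P3. In T-LM P4 it was at 0.69, 0.84, 1.87 and 1.3, all of them above the 75th percentile of their array. In T-LM P5 the 6 samples had a lowest level of -6.23, a median of -5.83 and a highest of -0.28, and in T-LM P6 Pf4 was at -0.37, -0.05, -0.37 and -1.11. The high sample of T-LM P5 was replicate 1, in which 9 of 10 leukocyte markers were well above background against 4 or 5 in the others, and the other 5 lay between -6.23 and -5.01 for Pf4. Ppbp, whose product is cleaved to a neutrophil attractant, was at -8.95 and -8.03 in P0 and at -4.99, -4.6, -3.13 and -5.43 in T-LM P4. It was not well above background in any of the 6 T-LM P5 samples (-7.86 to -6.56) and was measured in all 4 T-LM P6 samples (-5.46, -4.45, -4.69 and -5.06). Outside T-LM P4 and P6, Ppbp was well above background in 2 samples, KPT P1 replicate 5 (-6.21) and K-LM P4 replicate 5 (-5.5).

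In KPT, Pf4 was well above background in all samples of P1 and in some of P4, P5 and P6. In KPT P4 it was at -0.37, -0.68 and -8.94, and in KPT P5 at 1.3, 0.82, -6.58, -7.86 and -7.93, so that replicates of one group differed by as much as P0 and T-LM P6 did. In KPT P1 it was at -3.34, -3.08, -0.45, -0.1 and -0.16, all well above background and at least 36.6-fold higher than in P0, but not past the threshold (adjusted p = 0.0604). In KPT P6 it had fallen back to -7.26, -7.6, -6.78, -9.14 and -8.63. In K-LM Pf4 was at -1.57 in the only P1 sample, near background in all 5 P3 samples (-8.6 to -8.11) and at -3.45, -2.65, -2.86 and -0.9 in P5. In K-LM P6 it was at -9.26, -9.18 and -9.23, not well above background in any sample.

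Cxcl12 and Cxcl14, products of stromal and epithelial cells, followed a similar course. Cxcl14 was at -8.83 and -8.11 in P0 and at -8.04, -8.94 and -5.52 in T-LM P3. It was at -2.44, 0.55, -1.34 and -1.86 in T-LM P4 and at 1.09, 1.28, -0.52 and -0.51 in T-LM P6. In T-LM P5 its lowest, median and highest levels were -6.08, -5.53 and -1.07, the highest again in replicate 1. In KPT P6 Cxcl14 was at -7.93, -5.69, -5.91, -6.41 and -6.27, well above background in 3 samples, and in K-LM P6 at -9.04, -8.98 and -7.57, in none. Cxcl12, by the brighter of its 2 probes, was at -8.93 and -8.05 in P0 and at -2.03, -1, -2.74 and -3.09 in T-LM P6. It was at -8.12, -7.11, -7.32, -7.17 and -6.58 in KPT P6 and at -8.48, -8.23 and -5.99 in K-LM P6. In T-LM P1 Cxcl12 had already been at -3.91, -2.31, -2.6 and -3.39 in the numbered replicates, and at -8.52 in the replicate named LOT1. Both K-LM P4 samples with high Cxcl12 (-2.12 and -3.26) also had high Cxcl14 (-1.28 and 0.08), whereas the third had neither (-8.25 and -8.42). Their summed fibroblast signal was 3.3 and 3.98, against -0.63 in the third.

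**Figure D2:**
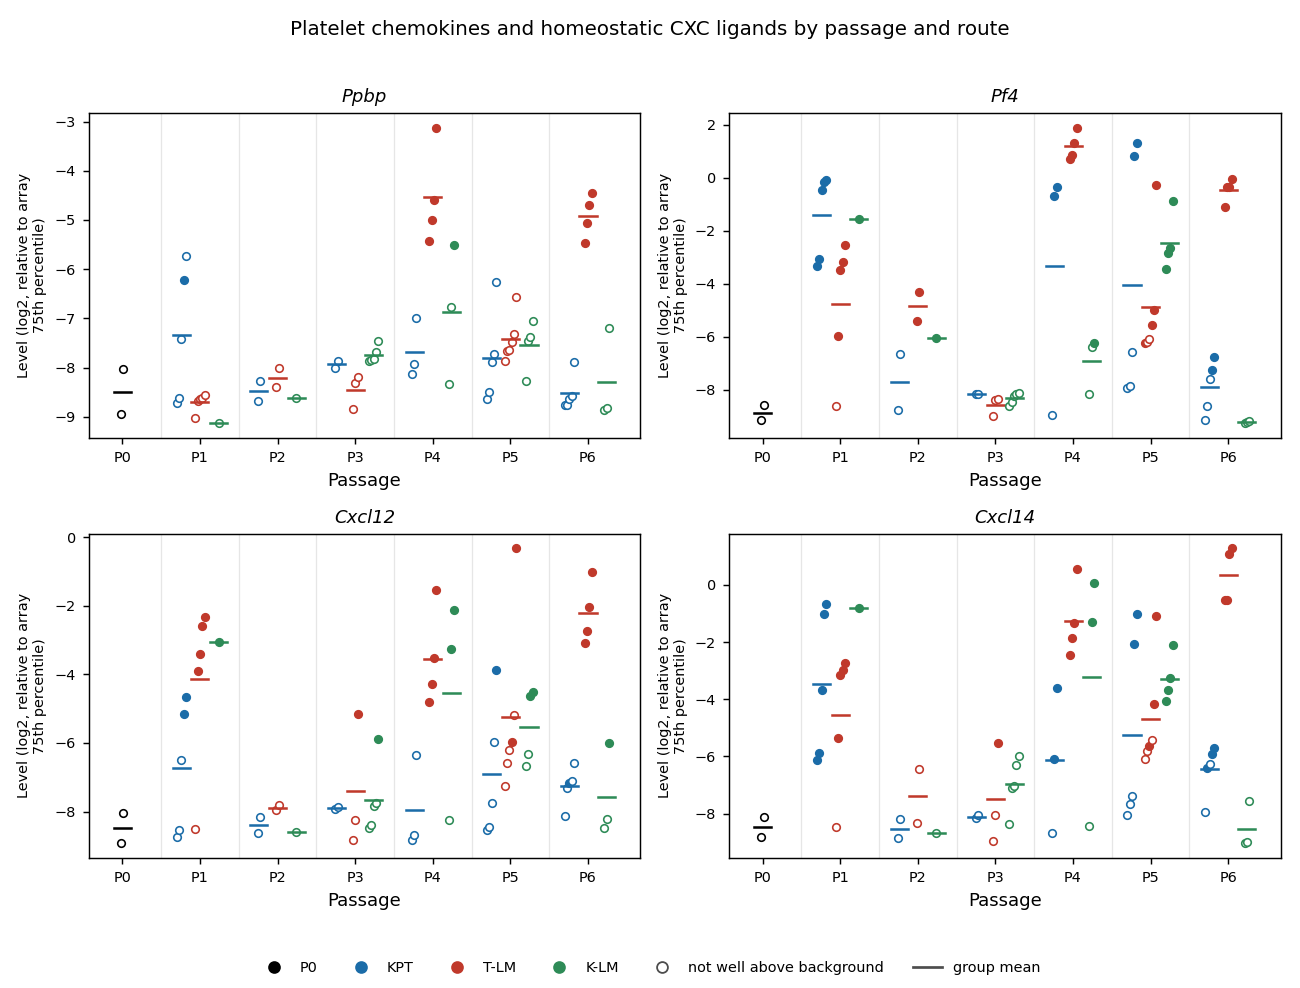
Level of Ppbp, Pf4, Cxcl12 (brighter probe) and Cxcl14 (log2, relative to the array's 75th percentile) in each RNA sample by passage, coloured by route as in the legend; open circles are samples in which the probe was not well above background and bars are group means. The 4 T-LM P6 samples lie above all KPT P6 and K-LM P6 samples for each gene, and 2 KPT P5 samples reach Pf4 levels of 0.82 and 1.3.

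Between P0 and P6 in T-LM, 5 of the 10 members were called and all 5 were higher, against 7.31% of probes called in either direction; Ppbp, Pf4, Cxcl12 and Cxcl14 passed the filter on dim probes through the later passages. Pf4 was at least 70.8-fold higher (adjusted p = 5.96e-05), Cxcl14 at least 124-fold (adjusted p = 7.68e-05), Cxcl12 at least 21.1-fold (adjusted p = 0.0094) and Ppbp at least 3.26-fold (adjusted p = 0.000146). These are bounds because no P0 array measured the 4 genes above background. The fifth was Cxcl16. Between P3 and P6 in T-LM 5 members were called again, against 7.01% of probes, the same 5 genes and all higher. Pf4 was at least 65.8-fold and Ppbp at least 3.03-fold higher, Cxcl14 rose by 7.84 (SE 1.04) and Cxcl12 by 5.20 (SE 1.24, adjusted p = 0.00796). Cxcl12 was the least firm: its second probe was at least 7.10-fold higher than in P0 and not past the threshold (adjusted p = 0.0172), the call of the first was lost without any one of the 6 samples, and 3 to 4 members were called when 1 sample was left out, 3 of them without P0 replicate 1, when Ppbp too missed the threshold at an adjusted p of 0.0101. From P3 its call was lost without T-LM P3 replicate 2 or 3 or any one of the T-LM P6 samples, and 3 members were called without T-LM P3 replicate 2.

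The rise was not steady. Between 25.1% and 32.1% of probes were well above background on the T-LM P5 arrays, against 31.1% to 36.1% at P4 and 31.6% to 37.2% at P6. Of the 10 leukocyte markers, 6 fell from P4 to P5 and 4 rose from P5 to P6. The part of either in the chemokine levels was not tested. In all fits of this route Ppbp passed the filter on dim probes only through T-LM P4 and P6, the groups where it was high. From P4 to P5 in T-LM, a step compared after the levels were seen, 4 members were lower, against 11.9% of probes. Pf4 fell by 6.07 (SE 0.815, adjusted p = 8.81e-05) and Cxcl14 fell by 3.43 (SE 0.881, adjusted p = 0.00904). Cxcl2 fell by 1.47 (SE 0.328, adjusted p = 0.00398) and Ppbp was at least 2.43-fold lower (adjusted p = 5.07e-05). From P5 to P6, 3 rose, against 13.4% of probes: Cxcl14 by 5.04 (SE 0.881, adjusted p = 0.00058), Pf4 by 4.42 (SE 0.815, adjusted p = 0.000869) and Ppbp at least 1.88-fold (adjusted p = 9.2e-05). The count from P4 to P5 was 2 without T-LM P4 replicate 3 or 4 or T-LM P5 replicate 3 and 6 without T-LM P5 replicate 1, and the Cxcl14 call was lost without any one sample other than T-LM P5 replicate 1. From P1 to P6 in T-LM 4 members rose, against 9.27% of probes: Ppbp at least 3.78-fold (adjusted p = 6.97e-08), Cxcl14 by 4.88 (SE 1.08, adjusted p = 0.0031), Pf4 by 4.28 (SE 1.06, adjusted p = 0.00663) and Cxcl16. Without T-LM P6 replicate 1 or 2 the calls of Pf4 and Cxcl14 were lost, leaving 2, and that of Pf4 was also lost without T-LM P6 replicate 3 or 4, T-LM P1 replicate 2 or LOT1.

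At P6 the lung route through the tail vein stood apart from both others for these genes. Between T-LM and KPT 8 of the 10 members were called, 7 higher and 1 lower in T-LM, against 11.5% of probes. In all P6 comparisons Ppbp passed the filter on dim probes only through T-LM P6, the group where it was high. Pf4 was higher in T-LM by 7.24 (SE 0.447, adjusted p = 3.67e-09), Cxcl14 by 6.58 (SE 0.5, adjusted p = 3.95e-08), Cxcl12 by 4.97 (SE 0.520, adjusted p = 1.96e-06) and Ppbp by at least 3.79-fold (adjusted p = 7.16e-07). Between K-LM and T-LM 7 were called, 6 of them lower in K-LM, against 12% of probes. Here Pf4 was at least 94.1-fold lower in K-LM (adjusted p = 6.99e-08), Cxcl14 at least 165-fold (adjusted p = 2.65e-07) and Ppbp at least 4.34-fold (adjusted p = 0.000254), and Cxcl12 differed by -5.00 (SE 0.71, adjusted p = 7.97e-05). Between K-LM and KPT only Cxcl5 of the 10 was called, against 16% of probes. Its call was lost without K-LM P6 replicate 2 or 3 or without KPT P6 replicate 1, 2, 3 or 4, and 0 members were called without K-LM P6 replicate 2 or any one of those 4 KPT samples. Within the slide of the K-LM P6 samples it differed by 1.77 (adjusted p = 0.00606). In the same comparison Pf4 was at -0.95 (95% interval -2.04 to 0.15) and Cxcl14 at -1.57 (SE 0.582, adjusted p = 0.054). The 3 comparisons share their samples pairwise, and the model of all 70 arrays together, whose groups vary unequally, called 5, 3 and 0 members for T-LM against KPT, K-LM against T-LM and K-LM against KPT.

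**Figure D3:**
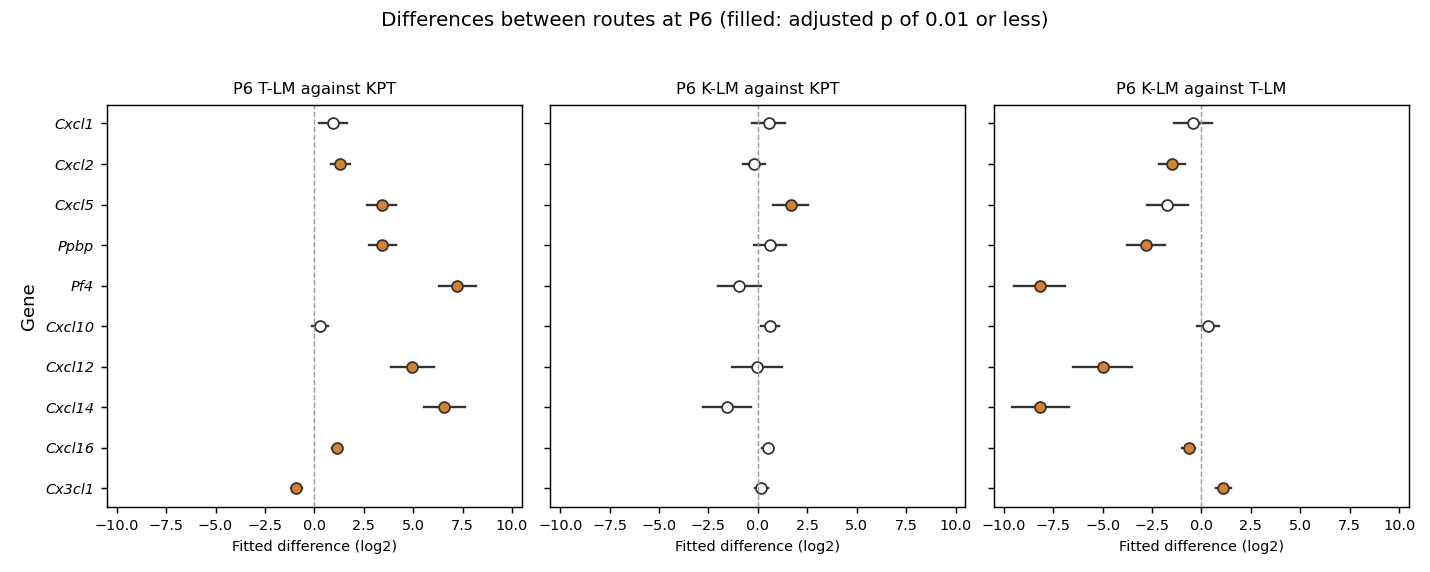
Fitted log2 difference between routes at P6 for each of the 10 members, the second-named route subtracted from the first, with 95% intervals from limma; filled points have an adjusted p of 0.01 or less. For probes at background in one route the plotted value is the measured difference and the text gives a bound. T-LM was higher than KPT by 7.24 for Pf4 and 6.58 for Cxcl14, and 8, 1 and 7 points are filled in the 3 panels.

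Markers of other cell types differed between the same groups. Of the 10 leukocyte markers, 5 (Ptprc, Adgre1, Tyrobp, Fcer1g and Laptm5) were not well above background in P0, in KPT P2 and P3, in T-LM P3 or in K-LM P6, while 7 to 10 markers were in T-LM P6, 9 or 10 in T-LM P4, and 10 in both KPT P5 samples with high Pf4, against 7 in the other 3. In KPT P4 all 10 were above background in the 2 samples with high Pf4 and 5 in the third. The number did not follow Pf4 everywhere: 8 were above background in KPT P6 replicates 1 to 4, with Pf4 at -9.14 to -6.78, and 9 in T-LM P1 replicate 2, with Pf4 at -5.97. Between P0 and T-LM P6, 4 of the 10 leukocyte markers rose and none fell, and Tyrobp, an adaptor of myeloid cells, was at least 20.9-fold higher. At P6, 6 of the 10 were higher and 1 was lower in T-LM than in KPT, 7 were lower and none higher in K-LM than in T-LM, and 1 was higher and 3 were lower in K-LM than in KPT. The summed leukocyte signal, which is set by markers that P0 cells also express, ranged from 1.36 to 1.58 in P0, from 1.9 to 2.12 in T-LM P6, from 1.88 to 2.32 in KPT P6 and from 1.52 to 2.08 in K-LM P6. Of the 7 fibroblast markers, 6 rose between P0 and T-LM P6, and the summed signal ranged from -4.78 to -4.53 in P0, from 1.2 to 2.96 in T-LM P6, from -0.79 to 0.35 in KPT P6 and from 0.09 to 1.66 in K-LM P6. At P6, 6 of the 7 were higher in T-LM than in KPT and none was lower, and 2 were lower in K-LM than in T-LM and none higher. Of the 5 lung epithelial markers 2 rose between P0 and T-LM P6: Sftpc, a surfactant protein of alveolar cells, was at least 14.5-fold higher and Ager at least 2.35-fold, with a summed signal of -2.85 to -0.48 against -5.54 to -5.39 in P0, -4.91 to -4.58 in KPT P6 and -3.9 to -3.28 in K-LM P6. In T-LM P5 all 5 lung markers were at background. Of the 6 megakaryocyte and platelet markers only Itgb3, which other cells also express, was well above background in T-LM P4, T-LM P6 or the KPT and K-LM samples. The defining platelet markers Itga2b, Gp1bb, Gp9, Gp6 and Treml1 were at background there, while 4 of the 6 were above background in T-LM P1 replicate 2, whose array had the most probes above background of the series, and 2 in T-LM P1 replicate 5. Of the 7 endothelial markers 1 to 3 were above background in T-LM P6, with a summed signal of -1.32 to -0.84 against -1.36 to -1.21 in P0. Kdr, the only one above background in P0, contributed to that sum. Cldn5 alone was called: it rose between P0 and T-LM P6, and at P6 it was higher in T-LM than in KPT and lower in K-LM than in T-LM. Of the epithelial and renal markers, Cdh1 alone rose between P0 and T-LM P6. At P6 Cdh1 was higher and Cdh16 lower in T-LM than in KPT. The part of these cells in the chemokine levels was not tested. In such bulk RNA, more cells of a type and more RNA per cell cannot be told apart.

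**Figure D4:**
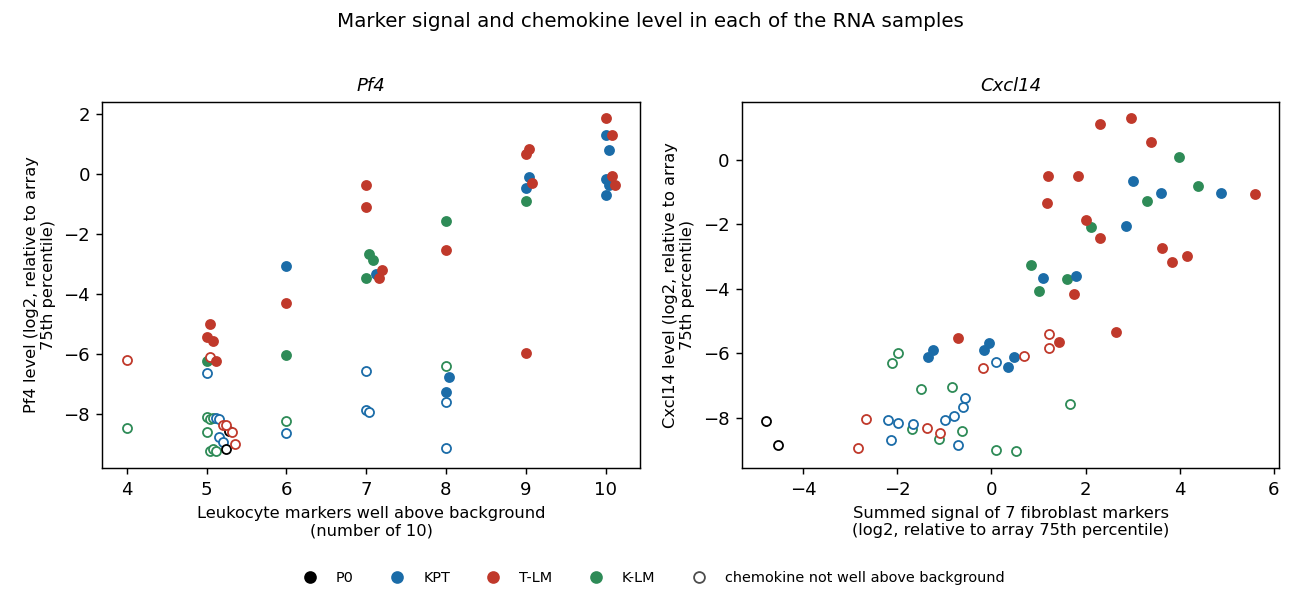
Left, level of Pf4 against the number of 10 leukocyte markers well above background; right, level of Cxcl14 against the summed signal of 7 fibroblast markers (both levels log2, relative to the array's 75th percentile), with 1 point for each of 65 RNA samples, coloured by route and open where the chemokine was not well above background. Points that would coincide on the left are shifted slightly to the right; all samples with 10 leukocyte markers above background have a Pf4 level of -0.68 or more, and both P0 samples lie at the lower left.

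Cxcl16 and Cx3cl1, the 2 transmembrane ligands, were well above background in every sample. Cxcl16 was at -4.52 and -4.44 in P0. It was at -2.84, -2.67, -2.55 and -2.93 in T-LM P6, at -3.06, -2.97 and -3.33 in K-LM P6 and at -3.92, -3.79, -3.91, -3.61 and -3.83 in KPT P6. The 3 routes did not overlap with one another or with P0, in the order T-LM, K-LM, KPT and P0 from high to low. These levels carry no slide term, and repeat arrays on the K-LM P6 slide read higher than first arrays by 0.02 to 0.51 for Cxcl16. Cxcl16 rose by 1.98 between P0 and T-LM P6 (SE 0.314, adjusted p = 0.000206) and by 1.22 between P0 and K-LM P6 (SE 0.274, adjusted p = 0.00527), where it was the only member of 10 called (9 tested), against 4.85% of probes. The rise in KPT was 0.87 (SE 0.228, adjusted p = 0.028). At P6 Cxcl16 was higher in T-LM than in KPT by 1.15 (SE 0.116, adjusted p = 1.31e-06) and lower in K-LM than in T-LM, at -0.65 (SE 0.159, adjusted p = 0.00678), and K-LM against KPT missed the threshold at 0.50 (SE 0.135, adjusted p = 0.0108). The K-LM call from P0 was lost without any one of the 3 K-LM P6 or 2 P0 samples, and that between K-LM and T-LM without K-LM P6 replicate 1 or 3 or T-LM P6 replicate 2 or 3. With the 75th percentile over all probes both were lost too. The call between K-LM and T-LM was lost under 10 of 19 alternatives, among them no filter, the compared groups only and one model of all arrays, and without the slide term the difference was -0.37. Within the slide of the K-LM P6 samples Cxcl16 rose from P0 by 1.11 (adjusted p = 0.00075).

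Cx3cl1, which binds Cx3cr1 on monocytes and natural killer cells, was at -4.53 and -4.4 in P0. It was at -3.7, -3.36, -3.45, -3.42 and -3.13 in KPT P6, at -2.98, -3.45 and -3.37 in K-LM P6 and at -4.47, -4.05, -4.36 and -4.51 in T-LM P6. T-LM P6 overlapped P0 and lay below every sample of the 2 other routes. It was lower in T-LM than in KPT, at -0.92 (SE 0.133, adjusted p = 6.05e-05), and higher in K-LM than in T-LM by 1.1 (SE 0.181, adjusted p = 0.000332), while K-LM and KPT differed by 0.17 (95% interval -0.15 to 0.50). From P0 to K-LM P6 Cx3cl1 differed by 1.19 in limma and missed the threshold (adjusted p = 0.0683). Within the slide of the K-LM P6 samples it rose from P0 by 1.15 and was called (adjusted p = 0.00152). Between P0 and KPT P1 it was the only member of 10 called (9 tested), against 4.4% of probes. It rose by 1.45 (SE 0.345, adjusted p = 0.00992), a call lost under 12 of 18 alternatives. Among them were leaving out KPT P1 replicate 3, 4 or 5 or either P0 sample, and fitting the compared groups only. The others were the percentile over all probes, normexp with quantile normalisation, the deposited values, no filter, the replicate block and the model of all arrays. Cxcl16 in the same comparison was at 2.23 (SE 0.542, adjusted p = 0.0113) and was called as well without KPT P1 replicate 1 or 2: in KPT P1 it was at -3.98 and -3.95 in those replicates and at -1.51, -1.5 and -1.54 in the other 3. These 3 KPT P1 replicates had 9 or 10 leukocyte markers above background against 7 and 6, whose part in the level was not tested.

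**Figure D5:**
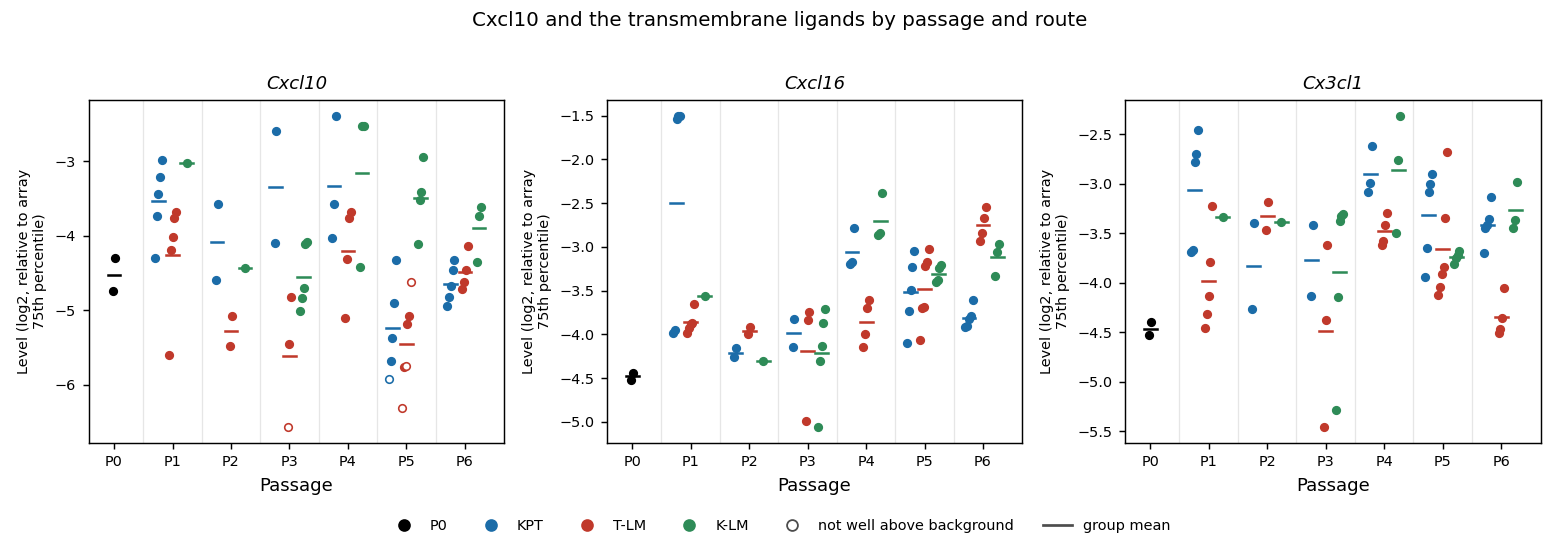
Level of Cxcl10, Cxcl16 and Cx3cl1 (log2, relative to the array's 75th percentile) in each RNA sample by passage, coloured by route as in the legend; open circles are samples in which the probe was not well above background and bars are group means. At P6 Cxcl16 runs from T-LM at the top (-2.93 to -2.55) to KPT (-3.92 to -3.61), and Cx3cl1 is lowest in T-LM.

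Cxcl10, the interferon-induced ligand, was at -4.3 and -4.75 in P0 and at -2.95, -4.11, -3.42 and -3.52 in K-LM P5. It was at -5.38, -4.9, -5.68, -4.33 and -5.93 in KPT P5, and its lowest, median and highest levels in T-LM P5 were -6.31, -5.47 and -4.62. The K-LM P5 samples did not overlap with either other route. Cxcl10 was well above background in all 4 of them, in 4 of the 5 KPT P5 samples and in 3 of the 6 of T-LM P5. The group mean of K-LM P5 was -3.50, against -3.54 in KPT P1, -3.33 in KPT P4 and -3.16 in K-LM P4. Cxcl10 was higher in K-LM than in KPT by 1.74 (SE 0.365, adjusted p = 0.00498) and higher than in T-LM by 1.95 (SE 0.351, adjusted p = 0.00377), where it was the only member of 10 called (9 tested), against 3.41% of probes. Against T-LM 0 members were called without K-LM P5 replicate 2, 5 or 6 or T-LM P5 replicate 5, and 2 without T-LM P5 replicate 1, when Cxcl1 was called too. Against KPT the Cxcl10 call was lost without K-LM P5 replicate 2, 5 or 6 or KPT P5 replicate 3 or 5. Of the 9 interferon response genes (7 tested), 3 were higher in K-LM than in KPT at P5 (Irf7, Ifnb1 and Isg15) and 3 were higher in K-LM than in T-LM (Ifnb1, Isg15 and Ifit1), with none lower. At P6 Cxcl10 was at -3.74, -4.35 and -3.62 in K-LM, at -4.72, -4.62, -4.14 and -4.46 in T-LM and between -4.95 and -4.33 in KPT, and no pair of routes differed past the threshold (0.61, 95% interval 0.13 to 1.08, for K-LM against KPT, adjusted p = 0.0546).

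At the first passage in T-LM 0 of the 10 members were called against P0 by limma (10 tested, 5 at an unadjusted p under 0.05), against 2.57% of probes. Pf4, Cxcl12 and Cxcl14 were not well above background in P0 and were in the 4 numbered T-LM P1 samples, at -5.97, -3.48, -3.19 and -2.53 for Pf4. In the replicate named LOT1 none of the 3 genes was, and Pf4 was at -8.62. Without LOT1, Pf4 alone was called, with an adjusted p of 0.00973.

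Receptors for these ligands were mostly at background. Of the 9 listed, 1 was tested in the P6 comparisons. This was Ackr3, an atypical receptor that takes up Cxcl12, which was higher in T-LM than in KPT by 4.00 (SE 0.341, adjusted p = 1.79e-07) and higher in K-LM than in KPT by 2.45 (SE 0.397, adjusted p = 0.000205). It rose by 3.78 between P0 and T-LM P6 (SE 0.541, adjusted p = 6.86e-05). Of the 5 proteases and proteoglycans that shed or bind these ligands, 4 were tested, and Sdc4, a syndecan that holds chemokines at the cell surface, was higher than in KPT at P6 in T-LM (0.97, SE 0.225, adjusted p = 0.00458) and in K-LM (1.12, SE 0.262, adjusted p = 0.00397). Cxcl3 fell by 2.17 between P0 and KPT P6 (SE 0.437, adjusted p = 0.00435) and at P6 its difference from KPT was 2.65 in T-LM and 1.61 in K-LM. Of the 12 NF-kappaB genes (11 tested), 5 were higher in T-LM than in KPT at P6 and 4 in K-LM, with none lower. Among those higher in T-LM, Il1a and Il1b passed the filter on dim probes only through T-LM P6. Il6, an inflammatory cytokine, differed most, with 5.89 in T-LM (SE 0.529) and 3.45 in K-LM (SE 0.616). Il1b was at least 7.24-fold higher in T-LM than in KPT and at least 8.28-fold lower in K-LM than in T-LM. Of the 9 interferon genes (7 tested), 3 were higher in K-LM than in KPT at P6 and none was lower. Between T-LM and KPT 1 was higher (Irf1) and 2 were lower in T-LM (Isg15 and Ifit1).

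The 3 members with the widest range of group means over the 19 groups were Pf4 (10.4), Cxcl14 (9.0) and Cxcl5 (7.1). Among 13515 gene symbols well above background on at least 2 arrays, those whose group means followed Pf4 most closely were Wfdc17 and Ccl9 (Pearson's r = 0.958 for both) and Clec4n (0.95). For Cxcl14 they were Il11, Efnb2 and Sox4 (0.962, 0.962 and 0.961), and for Cxcl5 Zc3h12a, Tmem176b and Nfkbiz (0.929, 0.865 and 0.865). These correlations are over 19 group means, which share the P0 line and, within a route, the lineage of the cells.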

How the data were processed

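RNA was hybridised to single-colour (Cy5) Agilent SurePrint G3 mouse arrays. Per the methods, recovered cells were cultured until no GFP-negative cells were seen, while the labels' extraction protocol names a tissue homogeniser. The deposited scanner files hold the red processed signal, an intensity after the authors' background subtraction in Feature Extraction 11.0.1.1 (62 arrays on 8 slides) or 12.0.2.2 (8 arrays on 1 slide). The authors also deposited log2 values, which lay within 0.107 of quantile-normalised log2 median intensity and were used as an alternative. The number of arrays limits the precision.

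Here spots marked as outliers (0.366%) were left out, spots of a probe averaged, and log2 intensity centred on each array's 75th percentile. Samples were grouped by the route and passage in their labels. Comparisons were fitted with limma 3.58.1 in R 4.3.3 (statmod 1.5.0) over all passages of a route, or all routes at one passage, on probes that passed the background flag in 2 or more arrays fitted, with Benjamini-Hochberg adjustment and a threshold of 0.01. Where K-LM P6 took part, its slide was a term and repeat arrays of one RNA were linked by duplicateCorrelation (correlation 0.674 for the route, 0.387 at P6); other fits used the first array of each RNA sample. Where a probe was not well above background on any array of a group, the fold is a bound ("at least"): the bright group's mean over the dim group's mean of, per array, the higher of the lowest signal well above background and the probe's own. The code was tested on simulated data. The members, gene lists and comparisons were chosen with earlier results of these data known. All members are named; of the other lists at most 4 called genes with the largest change from P0 to P6 or between routes at P6, and others where said. Alternatives were 2 other scalings and the deposited values, 2 other filters, the second Cxcl12 probe, other sets of arrays, slide and replicate blocks, a threshold of 0.05 and leaving out each RNA sample (96 fits).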

Additional observations from a re-analysis of the deposited data

Results flagged for a closer look

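In groups of 4 to 10 samples, 8 of 90 combinations of gene and group held a sample whose gap to the nearest other sample exceeded Dixon's 95% critical value, which chance alone does in about 1 of 20. Cxcl1 was at -1.59 in T-LM P6 replicate 1, against -0.76 to -0.70 in the others. Ppbp was at -7.89 in KPT P6 replicate 5 (others -8.76 to -8.57) and at -9.03 in T-LM P1 replicate 5 (others -8.68 to -8.55), all at background. In T-LM P5 replicate 1 Pf4 was at -0.28 (others -6.23 to -5.01) and Cxcl12 at -0.32 (others -7.25 to -5.19). In the T-LM P1 replicate named LOT1 Cxcl10 was at -5.60 (others -4.19 to -3.69) and Cxcl12 at -8.52 (others -3.91 to -2.31). Cxcl12 was at -5.89 in K-LM P3 replicate 3, against -8.49 to -7.76 in the others.

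The routes differed at P6, by the fitted difference itself, for 8 members between T-LM and KPT: Cxcl2 (1.31), Cxcl5 (3.41), Ppbp (3.44), Pf4 (7.24), Cxcl12 (4.97), Cxcl14 (6.58), Cxcl16 (1.15) and Cx3cl1 (-0.92). Between K-LM and KPT Cxcl5 differed (1.67). Between K-LM and T-LM 7 differed: Cxcl2 (-1.5), Ppbp (-2.82), Pf4 (-8.19), Cxcl12 (-5.00), Cxcl14 (-8.15), Cxcl16 (-0.65) and Cx3cl1 (1.1). Values of Ppbp, Pf4, Cxcl12 and Cxcl14 against a group at background depend on where background lies and are measured differences, not bounds. Ppbp passed the filter on dim probes only through T-LM P6.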

How the results depend on the processing

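Of 55 called changes of single members, 29 were called under every alternative run and none turned its direction, and 24 of the uncalled ones changed sign somewhere. Of 400 counts of members called under an alternative, 290 lay within 1.5 times the main count. The counts that moved further follow, and the cause of each was not tested unless the setting itself shows it. With a threshold of 0.05 the count went from 0 to 2 for P0 to P6 in KPT, from 1 to 2 for P3 to P6 in K-LM, P0 to P1 in KPT and P6 K-LM against KPT, from 2 to 6 for P1 to P6 in KPT, from 1 to 3 for P5 K-LM against T-LM and from 3 to 5 for P5 to P6 in T-LM. The filter on all arrays, which removes the members at background, left 1 for P0 to P6, P3 to P6, P1 to P6 (main 4) and P4 to P5 in T-LM, for P1 to P6, P4 to P5 and P5 to P6 in KPT and for P5 T-LM and K-LM against KPT, 0 for P5 K-LM against T-LM and P5 to P6 in T-LM, 3 for P6 T-LM against KPT and P6 K-LM against T-LM, and gave 2 for P0 to P1 in KPT. Without a filter the count was 0 for P3 to P6 in K-LM, P0 to P1 in KPT and P6 K-LM against KPT. With arrays of the compared groups only it was 2 for P0 to P6 in KPT and in K-LM, P1 to P6 in T-LM, P5 K-LM against T-LM and P4 to P5 in T-LM, 4 for P1 to P6 in KPT and 0 for P0 to P1 and P4 to P5 in KPT. On the repeat-array slide only it was 2 for P0 to P6 in KPT and in K-LM. One model of all arrays gave 0 for P0 to P6 and P3 to P6 in K-LM and P6 K-LM against KPT, 2 for P0 to P1 in KPT and P4 to P5 in T-LM, 5 for P1 to P6 in KPT and P6 T-LM against KPT and 3 for P6 K-LM against T-LM. The percentile over all probes gave 0 for P0 to P6 in K-LM and 2 for P6 K-LM against KPT. Normexp with quantile normalisation, and equally the deposited values, gave 0 for P0 to P1 in KPT, 3 for P5 K-LM against T-LM, 2 for P6 K-LM against KPT and 1 for P5 to P6 in KPT. Slide as a random block gave 0 for P3 to P6 in K-LM, 2 for P0 to P1 in KPT and 3 for P6 K-LM against KPT, and no slide term gave 2 for P3 to P6 in K-LM and 3 for P6 K-LM against KPT. Without the 3 P5 samples with the most fibroblast signal, an alternative chosen after seeing the data, 5 members were called for P5 T-LM against KPT, 8 for P5 K-LM against KPT, 5 for P5 K-LM against T-LM and 1 for P5 to P6 in KPT; those samples also held the highest Pf4 of their groups.

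The replicate numbers were not used to pair the samples in the main fits. Of 96 same-numbered pairs of deviations 35 correlated over 0.1, from -0.709 to 0.691. Pairs with different numbers were not compared, so whether the numbers follow a lineage was not tested. With the replicate block the counts were 0 for P0 to P6 and P3 to P6 in K-LM, P0 to P1 in KPT and P5 K-LM against T-LM, 1 for P0 to P1 in T-LM and 2 for P1 to P6 and P4 to P5 in T-LM; the other counts lay within 1.5 times the main ones.

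Leaving out 1 sample, the counts ranged from 3 to 4 for P0 to P6 in T-LM, from 0 to 0 for P0 to P6 in K-LM, from 3 to 5 for P3 to P6 in T-LM, from 0 to 1 for P3 to P6 in K-LM, P0 to P1 in T-LM and P6 K-LM against KPT, from 0 to 2 for P0 to P1 in KPT and P5 K-LM against T-LM, from 2 to 4 for P1 to P6 in T-LM, from 1 to 2 for P5 to P6 in KPT and from 2 to 6 for P4 to P5 in T-LM. Signal near background limits Ppbp, Pf4, Cxcl12 and Cxcl14, whose levels in P0 moved by up to 1.45 between arrays of one RNA for Pf4.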
